A study of Mus musculus with 4 samples.

Results

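Interleukin-1 (IL-1) and IL-18 are inflammatory cytokines whose receptors are built from paired chains, and 6 genes of this system were measured in regulatory T (Treg) cells of mouse visceral adipose tissue (VAT). The genes were chosen by symbol: Il1r1, Il1r2, Il1rap, Il18r1, Il18rap and Myd88, which are 6 of the 32285 gene rows of the deposited matrices. All 6 symbols were found once in each matrix. IL-1R1 (Il1r1) is the signalling receptor for IL-1, whereas IL-1R2 (Il1r2) binds IL-1 without a signalling domain and acts as a decoy. The accessory chain IL1RAP (Il1rap) completes the IL-1 receptor and also the receptor for IL-33, whose own chain is ST2 (gene Il1rl1), a receptor that marks a large share of VAT Treg cells. IL-18 binds the chain encoded by Il18r1, with the chain encoded by Il18rap as its partner, and MYD88 is the adaptor through which all of these receptors signal.

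The study examined how obesity and loss of Srebf2, which encodes a transcription factor of cholesterol synthesis, bear on VAT Treg cells. Live CD3+ CD4+ Foxp3+ cells were sorted, tagged by condition with an antibody-borne barcode (a hashtag), mixed 1:1 and sequenced in droplets with a 5′ chemistry in 2 separate pools. In the Srebf2 pool, KO cells came from 4 Foxp3YFP-cre Srebf2flox/flox mice and WT cells from 4 Foxp3YFP-cre Srebf2WT/WT mice, all male and 25 weeks old, so that both carried a Cre recombinase driven by Foxp3. In the diet pool, HFD cells came from 5 male Foxp3thy1.1 PpargTdt mice fed a high-fat diet for 22 weeks and NCD cells from 5 such mice on normal chow, aged 23 to 27 weeks. The mice of each condition were pooled under 1 hashtag, so each condition is 1 sample with no replicate check and no test. Intervals below are at 95% and cover counting error only, not the spread between mice. Any order over all 4 conditions also crosses the 2 pools, which differ in mouse strain and library. Pool and condition cannot be told apart there.

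After filtering, 3956 KO, 3490 WT, 4512 HFD and 4938 NCD cells remained, with medians of 3640.5, 3589.5, 3193.5 and 3989 unique molecular identifiers (UMIs, each standing for 1 captured RNA molecule) per cell. Levels are given as UMIs of a gene per 10⁶ UMIs of the condition (CPM), and in such sums fewer cells expressing a gene and less RNA per cell cannot be told apart. All 7 of 7 Treg markers were detected in every condition, with summed levels of 4213 CPM in KO, 4301 CPM in WT, 4032 CPM in HFD and 3881 CPM in NCD cells. Between the diets the list did not move together. Foxp3 stood at 162 CPM in HFD and 213 CPM in NCD cells, and Il2ra at 193 against 656 CPM. Cd3e (1129 against 897 CPM), Ikzf2 (1040 against 765 CPM), Ctla4 (869 against 744 CPM) and Cd4 (216 against 179 CPM) were higher in HFD. Tnfrsf18 was similar (423 against 427 CPM). Srebf2 stood at 3.95 CPM in KO and 65.7 CPM in WT cells, and at 39.9 CPM in HFD and 67.6 CPM in NCD cells. The Srebf2 levels match the labels of the Srebf2 pool.

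Of the 6 genes, 4 lie in 1 cluster with Il1rl1, and start regions of 3 of these are shown because Il1r2 and Il18r1 were higher in the same conditions and Il18rap was not. In RefSeq's annotation of the mouse build GRCm38.p6, chromosome 1 carries Il1r2, Il1r1, Il1rl2, Il1rl1, Il18r1 and Il18rap in this order as the 6 protein-coding genes between positions 40084692 and 40551707, a span of 467016 bases. Il1rl1 ends 133 bases before Il18r1 starts. Il1rap lies on chromosome 16 (26581509 to 26730128) and Myd88 on chromosome 9 (119335934 to 119340018). The 250 bases before a listed start are printed for the 3 receptor genes on which the results turn, on the plus strand in GRCm38.p6. They come from chr1:40085843-40086092 for Il1r2, chr1:40465756-40466005 for the third of 3 listed starts of Il18r1, and chr1:40515112-40515361 for Il18rap. The other 2 listed starts of Il18r1 have windows that reach into the end of Il1rl1 and are not printed. The windows of Il1r2 and Il18r1 lie inside the annotated gene spans, whose first bases lie further upstream. Capitals mark matches to CACGTG (an E-box) and TTCNNNGAA (a STAT-type motif).
Il1r2: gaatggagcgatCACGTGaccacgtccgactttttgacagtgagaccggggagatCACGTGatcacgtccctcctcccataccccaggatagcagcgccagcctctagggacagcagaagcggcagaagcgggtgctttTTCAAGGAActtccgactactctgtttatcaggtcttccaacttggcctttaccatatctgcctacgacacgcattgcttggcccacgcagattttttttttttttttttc
Il18r1: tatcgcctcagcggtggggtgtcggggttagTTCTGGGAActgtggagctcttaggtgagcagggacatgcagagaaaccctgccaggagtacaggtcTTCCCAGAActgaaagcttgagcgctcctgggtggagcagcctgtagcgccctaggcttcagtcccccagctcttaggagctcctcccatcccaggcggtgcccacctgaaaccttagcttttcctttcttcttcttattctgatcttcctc
Il18rap: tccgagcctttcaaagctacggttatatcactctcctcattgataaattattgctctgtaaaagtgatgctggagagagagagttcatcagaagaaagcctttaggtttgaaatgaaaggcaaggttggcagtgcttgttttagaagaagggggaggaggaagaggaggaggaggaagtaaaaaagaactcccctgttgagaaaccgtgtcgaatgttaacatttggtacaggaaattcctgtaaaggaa
The Il1r2 window holds CACGTG at 238 and 195 bases before the start and TTCNNNGAA at 111 bases before it. The Il18r1 window holds TTCNNNGAA at 219 and 152 bases before the start, while the Il18rap window holds none of the motifs searched. Both strands were searched for 6 motifs. Of 32817 promoters in the same table, 6.02% hold CACGTG and 0.430% hold it at least 2 times, 7.01% hold TTCNNNGAA, 6.75% TGANTCA (AP-1 type), 1.41% an NF-κB type motif (GGG, any 2 bases, TTTCC), 1.05% TCACNCCAC (sterol regulatory type) and 1.12% TCACACCT (T-box type). The Myd88 window (minus strand) holds 1 TTCNNNGAA and 1 TCACACCT, and the windows of Il1r1 and Il1rap and the other 2 of Il18r1 hold none. A match describes letters in the window and is not a binding site.

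Il1r1, the signalling IL-1 receptor, was close to undetected in all 4 conditions. It had 5 UMIs in 4 KO cells (0.304 CPM, 0.0987 to 0.710), 8 UMIs in 7 WT cells (0.571 CPM, 0.247 to 1.13), 11 UMIs in 4 HFD cells (0.593 CPM, 0.296 to 1.06) and 4 UMIs in 4 NCD cells (0.18 CPM, 0.0491 to 0.461). A single HFD cell carried 6 of the 11 HFD UMIs. Markers of stromal and endothelial cells were high in the few Il1r1-positive cells of 3 conditions. The list of 5 summed to 1779 CPM in Il1r1-positive KO cells, 1214 CPM in WT, 8777 CPM in HFD and 85.0 CPM in NCD, against 56.6 CPM in all KO, 43.8 CPM in all WT, 115 CPM in all HFD and 25.6 CPM in all NCD cells. The matrix gene Dcn led in KO (1275 CPM) and HFD (5168 CPM) and the endothelial gene Cdh5 in WT (654 CPM), while in NCD Pecam1 alone was found and Col1a1, Dcn, Pdgfra and Cdh5 were at 0. Gamma delta T or type 17 cell markers were raised there too, at 212 CPM in KO, 93.4 CPM in WT and 38.0 CPM in HFD. These rest on 8, 3 and 2 UMIs. Ebf1, alone of the B cell markers, stood at 319 CPM in KO, 311 CPM in WT and 361 CPM in HFD. Both lists were at 0 in NCD. The 7 Treg markers summed to 1726 CPM in Il1r1-positive KO, 2802 CPM in WT, 1026 CPM in HFD and 4054 CPM in NCD cells, so the label of a Treg cell is least clear for the HFD ones. Without cells with a UMI of Col1a1, Dcn, Pdgfra or Cdh5, the log2 ratio of Il1r1 for HFD over NCD was -0.10, against 1.61 with them. Neighbours in the order of these levels do not differ beyond their intervals, and all 4 levels lie under the 5 CPM below which no ratio between conditions is read here. Differences in Il1r1 between the conditions were therefore not detectable at this depth.

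Il1r2, the decoy receptor, was the member whose level differed most between conditions. Its level was 17.9 CPM (16.0 to 20.1) in KO, 9.06 CPM (7.56 to 10.8) in WT, 56.0 CPM (52.7 to 59.5) in HFD and 8.11 CPM (6.97 to 9.38) in NCD cells. HFD cells were highest, KO cells second, and WT and NCD cells overlapped in their intervals. Il1r2 RNA was found in a small minority of cells, 3.77% of KO, 2.12% of WT, 6.78% of HFD and 2.19% of NCD cells. In these positive cells the mean was 1.98 UMIs in KO, 1.72 in WT, 3.4 in HFD and 1.67 in NCD. The HFD cells thus combined more positive cells with more UMIs in each.

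A group of HFD cells was rich in Il1r2. Cells with 5 or more Il1r2 UMIs numbered 62 in HFD against 6 in NCD, and 11 in KO against 5 in WT. They held 60.3% of all Il1r2 UMIs in HFD, against 23.9% in NCD, and 29.8% in KO, against 26.8% in WT. The highest count in a cell was 30 in HFD and 9 in NCD, and 17 in KO and 10 in WT. Positive cells were deeper than the rest, with a median of 6403 UMIs in HFD cells with Il1r2 against 3104.5 in HFD cells without it, and the part of depth in these counts was not tested beyond the thinning below. As a measure of free RNA, 1 of 77 B cells left out of the Srebf2 pool (1.30%, 0.0329 to 7.02; median 4331 UMIs) and 1 of 185 B cells left out of the diet pool (0.541%, 0.0137 to 2.97; median 3720 UMIs) had an Il1r2 UMI. The KO, WT and NCD shares lie above these shares but within their intervals, whereas the HFD share lies above the interval of its pool. Neutrophils are a known source of Il1r2, and all 5 neutrophil markers were at 0 in the Il1r2-positive cells of every condition. However, the same list was at 0 over all KO, HFD and NCD cells and held 1 UMI over all WT cells. Cells with a Lyz2 UMI had been left out beforehand. The list therefore does not set Il1r2-positive cells apart from the rest, and a neutrophil source was not tested.

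**Figure D1:**
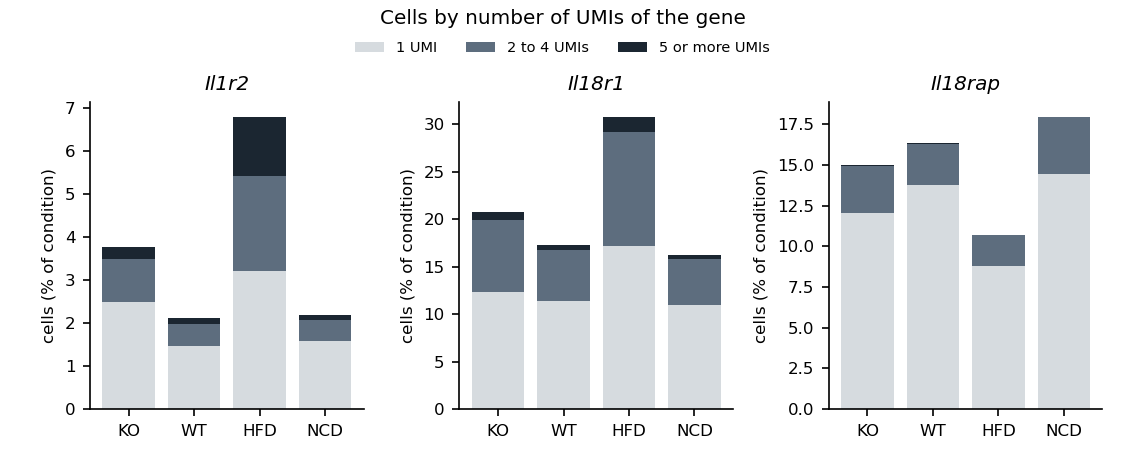
Share of cells in each condition (% of the condition, vertical axis) that held 1, 2 to 4, or 5 or more UMIs of Il1r2, Il18r1 and Il18rap, as stacked bars for KO, WT, HFD and NCD. The darkest segment, cells with 5 or more UMIs, covers 62 HFD and 6 NCD cells for Il1r2 and 70 HFD and 21 NCD cells for Il18r1, and at most 2 cells in a condition for Il18rap.

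Il1rap, the shared accessory chain, was low and similar throughout. Its level was 10.2 CPM (8.67 to 11.8) in KO, 12.3 CPM (10.5 to 14.3) in WT, 9.81 CPM (8.44 to 11.3) in HFD and 11.98 CPM (10.6 to 13.5) in NCD cells. All 4 intervals overlap their neighbours in the order of levels. Il1rap UMIs were found in 3.67% of KO, 4.13% of WT, 3.68% of HFD and 4.86% of NCD cells, against 5.19% of the B cells of the Srebf2 pool and 3.24% of those of the diet pool. The shares in the Srebf2 pool lie below that of its B cells, which rests on 4 of 77 cells (1.43 to 12.8), and those in the diet pool lie within the interval of its B cells (1.2 to 6.93). At this depth the Il1rap shares were therefore not told apart from those of B cells. Free RNA and Il1rap RNA made by the B cells themselves cannot be told apart in those shares. How much of the Il1rap signal is free RNA was thus not tested, here or in the splits below. Stromal and endothelial markers moved with Il1rap in HFD, where they summed to 501 CPM in Il1rap-positive cells with Dcn highest (251 CPM), against 115 CPM in all HFD cells. The sums were 80.7 against 56.6 CPM in KO, 123 against 43.8 CPM in WT and 32.4 against 25.6 CPM in NCD, with Pecam1 highest, Dcn and Pdgfra at 0 and 2 of 5 markers found in each. Without cells with a UMI of Col1a1, Dcn, Pdgfra or Cdh5, the log2 ratio of Il1rap was -0.26 for KO over WT and -0.31 for HFD over NCD.

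Il18r1, the IL-18-binding chain, differed between all 4 conditions beyond counting error. It stood at 88.4 CPM (83.9 to 93.1) in KO, 68.8 CPM (64.5 to 73.3) in WT, 138 CPM (132 to 143) in HFD and 55.5 CPM (52.4 to 58.7) in NCD cells. No interval overlapped another, and the order was HFD, KO, WT, NCD, which mixes pool with condition. Il18r1 UMIs were found in 20.8% of KO, 17.3% of WT, 30.8% of HFD and 16.2% of NCD cells, and in 5.19% and 2.16% of the B cells of the Srebf2 and diet pools. Among cells left out for a Cd8a UMI, Il18r1 reached 176 CPM in the Srebf2 pool and 102 CPM in the diet pool.

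Il18rap, the signalling partner of Il18r1, followed another order. Its level was 44.9 CPM (41.8 to 48.3) in KO, 48.3 CPM (44.7 to 52.0) in WT, 32.0 CPM (29.5 to 34.7) in HFD and 50.1 CPM (47.2 to 53.1) in NCD cells. HFD cells were lowest, and the other 3 conditions did not differ beyond the overlap of neighbouring intervals. Il18rap UMIs were found in 15.0% of KO, 16.3% of WT, 10.7% of HFD and 17.9% of NCD cells. The B cell shares were 2.60% in the Srebf2 pool and 0.541% in the diet pool.

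Myd88, the common adaptor, was level across the study. It stood at 28.0 CPM (25.5 to 30.7) in KO, 27.1 CPM (24.4 to 29.9) in WT, 27.2 CPM (24.9 to 29.7) in HFD and 25.9 CPM (23.8 to 28.1) in NCD cells, and all 4 intervals overlap. Its share of cells ran between 9.57% in WT and 10.7% in NCD. B cells, which also use this adaptor, had a Myd88 UMI in 7.79% of cells of the Srebf2 pool and 8.11% of the diet pool.

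**Figure D2:**
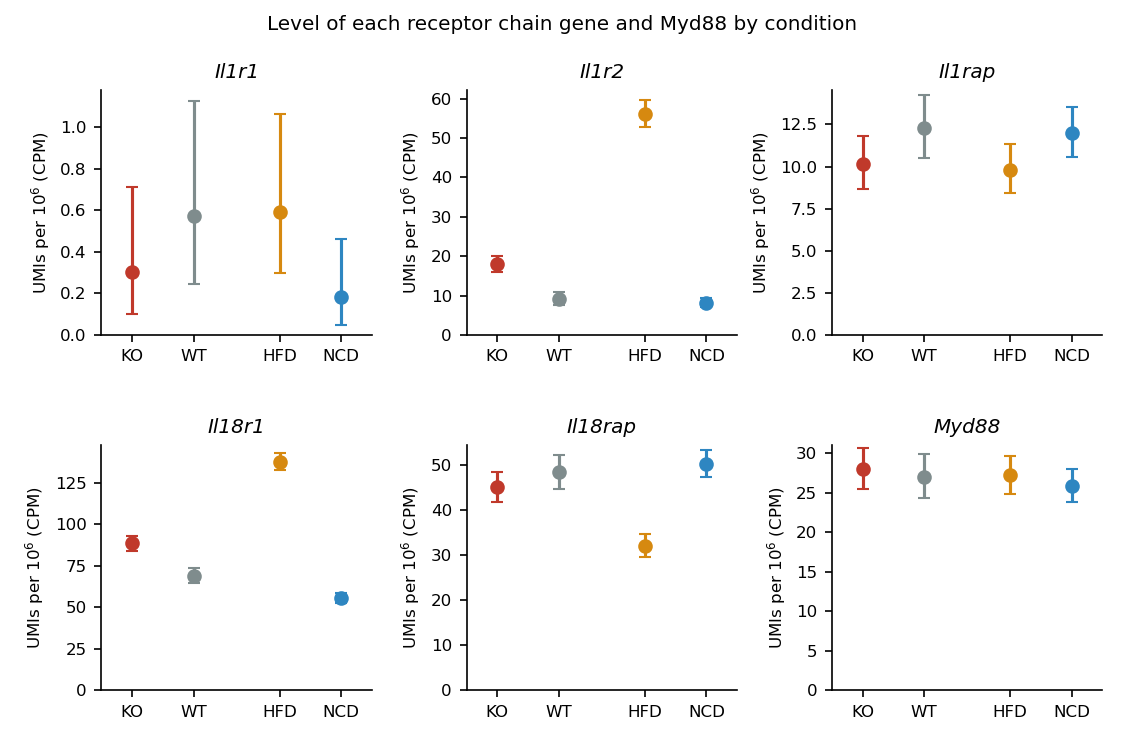
Level of each of the 6 genes (UMIs per 10⁶ UMIs, vertical axes from 0) in KO, WT, HFD and NCD cells, 1 point per condition with its exact Poisson 95% interval as the bar. Il1r2 and Il18r1 are highest in HFD (56.0 and 138 CPM), Il18rap is lowest there (32.0 CPM), and Myd88 stays between 25.9 and 28.0 CPM.

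Loss of Srebf2 went with more Il1r2 and slightly more Il18r1. A gene counts here as higher or lower where its log2 ratio is at least 0.32 in size and its higher condition reaches 5 CPM. This threshold concerns size alone and tests nothing. In KO against WT cells, 2 of the 5 members that reached 5 CPM were higher and none was lower, where 5.41% of the 9822 genes at that level were higher and 4.9% were lower. Il1r2 was 1.97-fold higher in KO cells (log2 ratio 0.98, 0.68 to 1.30). Il18r1 was 1.28-fold higher (0.36, 0.24 to 0.48), just past the rule. The log2 ratio was -0.27 (-0.59 to 0.04) for Il1rap, -0.10 (-0.26 to 0.05) for Il18rap and 0.05 (-0.15 to 0.25) for Myd88, all within the rule. The median of the 5 members was 0.05, beside 0.00 for all genes tested.

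The size of the Il1r2 difference between KO and WT cells varied with how cells were counted. With every cell thinned to 2000 UMIs, 91 UMIs in KO cells and 54 in WT cells gave a log2 ratio of 0.55 (0.06 to 1.07), and 1.98% of KO and 1.23% of WT cells had an Il1r2 UMI. Among cells with a Foxp3 UMI the ratio was 1.33. For Il18r1 the thinned ratio was 0.38 (0.21 to 0.55).

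The high-fat diet went with a larger difference in the same pair of genes and a lower level of Il18rap. In HFD against NCD cells, 2 of the 5 members at 5 CPM were higher and 1 was lower, where 23.6% of the 10024 genes tested were higher and 15.8% were lower. Il1r2 was 6.89-fold higher in HFD cells (log2 ratio 2.79, 2.56 to 3.03), a ratio below which 99.2% of the genes tested lay. Il18r1 was 2.48-fold higher (1.31, 1.21 to 1.41), with 95.3% of genes below it. Il18rap was 1.57-fold lower (log2 ratio -0.65, -0.79 to -0.50). Il1rap (-0.29, -0.57 to -0.01) and Myd88 (0.08, -0.10 to 0.25) stayed within the rule. The median of the 5 members was 0.08, as was that of all genes tested. The 2 receptor chains of IL-18 thus differed in opposite directions between the diets.

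Thinning changed the diet ratios little. With each cell at 2000 UMIs, Il1r2 had 257 UMIs in HFD cells and 49 in NCD cells (log2 ratio 2.67, 2.24 to 3.15). The thinned ratio was 1.39 (1.24 to 1.54) for Il18r1 and -0.54 (-0.77 to -0.31) for Il18rap. Shares of thinned cells with an Il18r1 UMI were 20.7% in HFD and 8.94% in NCD, and those with an Il18rap UMI were 6.08% in HFD and 8.88% in NCD. The directions at equal depth were those of the full counts.

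The conditions also differed in how many cells carried Il1rl1. A UMI of Il1rl1 was found in 58.7% of KO and 71.0% of WT cells, and in 17.6% of HFD and 78.1% of NCD cells. Il1rl1 stood at 565 CPM in KO and 691 CPM in WT cells, and at 131 CPM in HFD and 803 CPM in NCD cells. The ratios were therefore taken again within cells with at least 1 Il1rl1 UMI (Il1rl1-positive) and cells with none (Il1rl1-zero). Il1rl1-positive cells were deeper in every condition, with median UMIs of 3772 against 3091 in HFD and 4221 against 3103 in NCD, so the split also sorts by depth. Among the left-out B cells, an Il1rl1 UMI was found in 7 of 77 (9.09%) in the Srebf2 pool. In the diet pool it was found in 12 of 185 (6.49%). Of the 4 conditions, HFD has the share nearest to these. How many Il1rl1-positive cells owe their UMI to free RNA was not tested, here or in the splits below.

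In the full counts Il1r2 was higher in KO and in HFD cells on both sides of the split. Among Il1rl1-positive cells it stood at 19.997 CPM in KO and 9.77 CPM in WT (log2 ratio 1.03, 0.69 to 1.39). Among Il1rl1-zero cells it stood at 14.2 CPM in KO and 6.92 CPM in WT (1.01, 0.36 to 1.75). That ratio rests on 82 UMIs in KO and 24 in WT, and the top 2 cells held 35.4% and 37.5% of them. The interval takes UMIs as independent and does not cover such bunching. In the diet pool, Il1rl1-positive cells had 47.8 CPM in HFD and 8.76 CPM in NCD (2.45, 2.13 to 2.76), and Il1rl1-zero cells had 58.2 CPM in HFD and 4.87 CPM in NCD (3.54, 2.91 to 4.34). The last of these rests on 857 UMIs in HFD and 18 in NCD cells. At equal depth several of these ratios were smaller. With cells thinned to 2000 UMIs before the split, Il1rl1-positive cells had 15.2 CPM in KO and 11.6 CPM in WT (0.39, -0.22 to 1.01), and Il1rl1-zero cells had 10.0 CPM in KO and 4.16 CPM in WT (1.22, 0.27 to 2.39). The interval of the Il1rl1-positive cells reaches below 0, so a KO difference there was not detectable at equal depth. In the diet pool the thinned ratio was 2.53 (1.65 to 3.41) in Il1rl1-positive cells, on 24 UMIs in each diet, and 2.08 (1.51 to 2.76) in Il1rl1-zero cells, at 35.8 CPM in HFD and 8.33 CPM in NCD. Thinning before the split moves cells that lose their Il1rl1 UMIs into the Il1rl1-zero group. With the split taken on the full counts and the cells thinned afterwards, the ratios were 0.54 (-0.02 to 1.13) in Il1rl1-positive and 0.95 (-0.17 to 2.37) in Il1rl1-zero cells for KO over WT, and 2.18 (1.5 to 2.84) and 3.33 (2.30 to 4.91) for HFD over NCD.

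For Il18r1 the diet ratio was larger in Il1rl1-positive than in Il1rl1-zero cells. In Il1rl1-positive cells it stood at 127 CPM (115 to 138) in HFD and 42.8 CPM (39.9 to 45.9) in NCD cells, a log2 ratio of 1.56 (1.40 to 1.73). In Il1rl1-zero cells it stood at 141 CPM (135 to 147) in HFD and 119 CPM (108 to 131) in NCD cells, a ratio of 0.24 (0.09 to 0.39) that is within the rule. Whether the ratio in Il1rl1-zero cells passed the rule depended on the counting. With cells thinned before the split it was 0.78 (0.58 to 0.98), at 150 CPM in HFD and 87.3 CPM in NCD, and with hashtags 99% pure it was 0.64, both past the rule. With the cells thinned after the split it was 0.30 (0.09 to 0.52), at 151 CPM in HFD and 122 CPM in NCD, within the rule. The thinned ratio in Il1rl1-positive cells was 1.67 (1.36 to 1.96) or 1.73 (1.46 to 1.99), by the same order of steps. Il1rl1-positive NCD cells had the lowest level of the 4 groups of the diet pool in each of these counts. With both diets weighted to the same share of Il1rl1-positive cells, the ratio was 0.70 in place of 1.31. Between KO and WT cells, the ratio was 0.30 (0.14 to 0.46) in Il1rl1-positive and 0.21 (0.02 to 0.39) in Il1rl1-zero cells, both within the rule, and 0.25 at equal shares. With cells thinned before the split these were 0.37 (0.11 to 0.63) and 0.28 (0.05 to 0.51), and thinned after it 0.39 (0.16 to 0.63) and 0.14 (-0.11 to 0.40), so at equal depth the ratio in Il1rl1-positive cells was past the rule.

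Il18rap was lower under the high-fat diet in Il1rl1-zero cells. There it stood at 25.5 CPM (22.9 to 28.2) in HFD and 46.0 CPM (39.3 to 53.4) in NCD cells (log2 ratio -0.85, -1.12 to -0.58). In Il1rl1-positive cells it stood at 57.2 CPM (49.9 to 65.3) in HFD and 50.9 CPM (47.7 to 54.3) in NCD cells (0.17, -0.05 to 0.38). At equal shares of Il1rl1-positive cells the ratio was -0.25, short of the rule. Between KO and WT cells it was -0.11 (-0.28 to 0.07) in Il1rl1-positive and 0.17 (-0.16 to 0.52) in Il1rl1-zero cells.

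In the full counts Myd88 stayed within the rule on both sides, with ratios between -0.14 and 0.22, and Il1rap passed it once. Thinned before the split, Myd88 in Il1rl1-zero cells stood at 30.4 CPM in HFD and 22.7 CPM in NCD (0.42, 0.02 to 0.84), past the rule, and thinned after it the ratio was 0.41 (-0.06 to 0.93) there and -0.39 (-1.06 to 0.17) in Il1rl1-positive cells. For KO over WT with hashtags 99% pure, Myd88 was 0.59 in Il1rl1-positive and -0.76 in Il1rl1-zero cells, of which 58 were WT. Il1rap was lower in HFD than in NCD among Il1rl1-zero cells, at 9.77 against 14.9 CPM (-0.61, -1.06 to -0.13), on 144 and 55 UMIs. With hashtags 99% pure this ratio was 0.088, and thinned before the split it was -0.46 (-1.04 to 0.15). Its other 3 ratios within the split were between -0.28 and -0.02.

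Over these comparisons within the split, the counts of members past the rule were small. Among Il1rl1-positive cells of KO against WT, 1 of 5 was higher and none lower, with 5.4% and 6.45% of genes tested past the rule in those directions. Among Il1rl1-zero cells of KO against WT, 1 of 5 was higher and none lower, with backgrounds of 11.2% and 10.1%. Among Il1rl1-positive cells of HFD against NCD, 2 of 5 were higher and none lower, with backgrounds of 23.4% and 14.5%. Among Il1rl1-zero cells of HFD against NCD, 1 of 5 was higher and 2 were lower, with backgrounds of 14.8% and 18.8%.

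**Figure D3:**
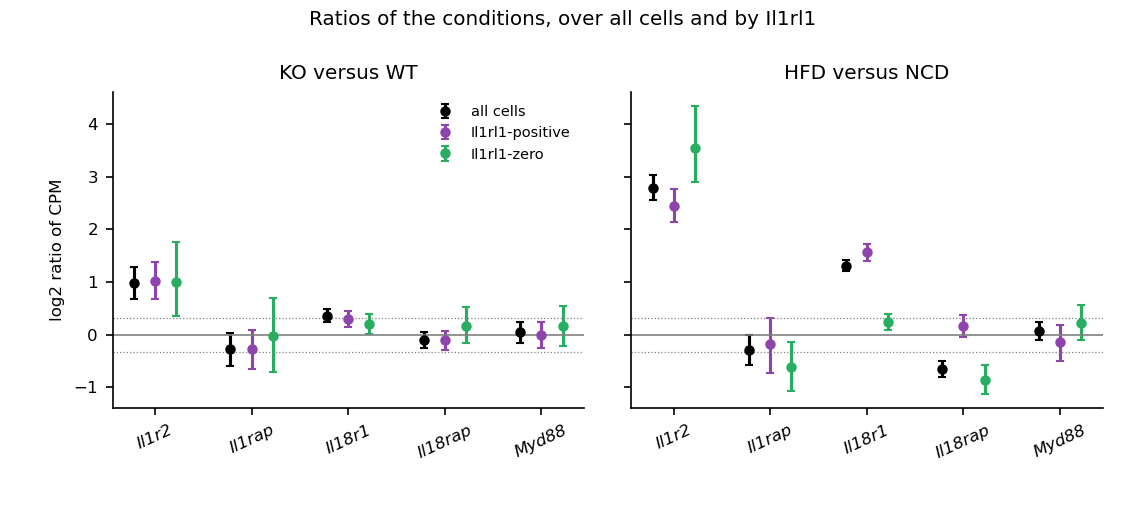
Log2 ratios of CPM (vertical axis) for KO over WT (left) and HFD over NCD (right), for all cells, Il1rl1-positive cells and Il1rl1-zero cells, with exact 95% counting intervals and dotted lines at the size threshold. In these full counts Il1r2 lies above the upper line in all 6 ratios, and in the diet pool Il18r1 lies above it in all cells and in Il1rl1-positive cells (1.56) and below it in Il1rl1-zero cells (0.24).

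Within each condition, Il1rl1-positive cells carried less Il18r1 than Il1rl1-zero cells outside HFD. Il18r1 stood at 68.6 against 125 CPM in KO (log2 ratio of Il1rl1-positive over Il1rl1-zero cells -0.86, -1.01 to -0.71), at 55.9 against 108 CPM in WT (-0.95, lower limit -1.14), and at 42.8 against 119 CPM in NCD (-1.47, lower limit -1.64). In HFD cells it stood at 127 against 141 CPM (-0.15, lower limit -0.30), within the rule. After thinning before the split the ratios were -0.52 in KO, -0.61 in WT, -0.19 in HFD and -1.08 in NCD cells. The order of the 4 conditions was thus the same in this count, with smaller sizes in 3 of them. Thinned after the split, Il18r1 stood at 75.6 against 126 CPM in KO and 57.7 against 114 CPM in WT. It stood at 132 against 151 CPM in HFD and 39.9 against 122 CPM in NCD, levels close to those of the full counts. Summed over the 5 members, 3 were higher and 1 lower in KO cells (10.7% and 23.4% of genes tested) and likewise in WT cells (12.4% and 20.4%). In HFD cells 1 was higher and none lower (14.5% and 15.4%), and in NCD cells 1 was higher and 2 were lower (11.6% and 26.1%). The median ratio of all genes at 20 CPM or more was -0.12 in NCD cells, so that ratios there lie against a lower baseline.

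Il18rap leaned towards the Il1rl1-positive cells. Its level in Il1rl1-positive against Il1rl1-zero cells was 49.9 against 35.9 CPM in KO (0.47), 53.7 against 31.7 CPM in WT (0.75), 57.2 against 25.5 CPM in HFD (1.17) and 50.9 against 46.0 CPM in NCD (0.14, within the rule). Thinned before the split, the ratios were 0.32 in KO, 0.86 in WT, 0.97 in HFD and 0.10 in NCD cells. Before rounding the KO ratio was just short of the rule, and its interval (-0.002 to 0.65) reaches below 0. The NCD ratio was past the rule without cells with NK markers (0.38) and with hashtags 99% pure (0.36). The partner chains of the IL-18 receptor were thus distributed differently over the Il1rl1 split. In the full counts Il18r1 was lower and Il18rap higher in Il1rl1-positive cells of KO and WT.

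Il1r2 and Il1rap showed no common lean. Il1r2 was at 19.997 against 14.2 CPM in KO (0.49), 9.77 against 6.92 CPM in WT (0.47), 47.8 against 58.2 CPM in HFD (-0.28) and 8.76 against 4.87 CPM in NCD cells (0.81). Thinned before the split, the ratio was 0.59 in KO, 1.43 in WT, -0.68 in HFD and -1.13 in NCD cells. Thinned after the split, Il1r2 in NCD stood at 5.75 CPM (43 UMIs) in Il1rl1-positive and 3.28 CPM (6 UMIs) in Il1rl1-zero cells. The direction in NCD cells thus depended on whether cells were thinned before or after the split. Il1rap was at 11.2 against 8.29 CPM in KO (0.42), 13.6 against 8.37 CPM in WT (0.68), 9.98 against 9.77 CPM in HFD (0.04) and 11.4 against 14.9 CPM in NCD cells (-0.39). With hashtags required to be 99% pure, the Il1rap ratios in WT and NCD turned round, to -0.41 and 0.33.

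**Figure D4:**
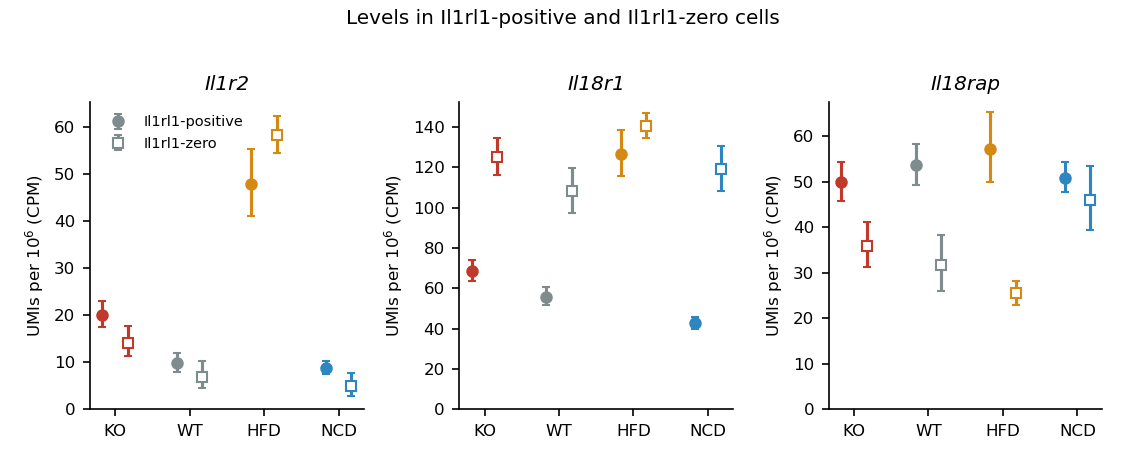
Levels of Il1r2, Il18r1 and Il18rap (UMIs per 10⁶ UMIs, vertical axes from 0) in Il1rl1-positive cells (filled circles) and Il1rl1-zero cells (open squares) of each condition, with exact Poisson 95% intervals. Il18r1 is lower in Il1rl1-positive cells of KO, WT and NCD (68.6, 55.9 and 42.8 CPM), and Il18rap is low in Il1rl1-zero HFD cells (25.5 CPM).

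Cells with RNA of both IL-18 receptor chains were more frequent than the product of the shares in 3 conditions. In cells thinned to 2000 UMIs, Il18r1 and Il18rap were found together in 65 KO cells, where the product of the shares gives 37.9, a quotient of 1.71 (1.32 to 2.18). The quotient was 1.73 in WT cells (50 cells), 1.59 in HFD cells (76 cells, against 47.8) and 1.16 in NCD cells (43 cells, 0.843 to 1.57). For Il18r1 with Il1rl1 the quotient was under 1 in every condition, at 0.816 in KO, 0.863 in WT, 0.918 in HFD and 0.809 in NCD cells. For Il18rap with Il1rl1 it was 1.15 in KO, 1.21 in WT, 1.65 in HFD and 1.03 in NCD cells. These quotients describe the cells of 1 library each and share its free RNA.

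Some other genes of known Treg subsets divided single members more sharply than Il1rl1 did, and others did not. Tnfrsf9, which encodes the activation receptor 4-1BB, went with Il1r2. Il1r2 stood at 37.0 CPM in cells with a Tnfrsf9 UMI against 9.48 CPM in cells without in KO, 18.1 against 5.48 CPM in WT, 121 against 15.9 CPM in HFD and 14.7 against 6.17 CPM in NCD. The log2 ratios were 1.96 in KO, 1.72 in WT, 2.92 in HFD and 1.26 in NCD cells, and 857 of the 1039 Il1r2 UMIs of HFD lay in Tnfrsf9-positive cells. Those HFD cells had a median of 4145.5 UMIs, against 2984.5 in HFD cells without Tnfrsf9. For Il1rap, Il18r1, Il18rap and Myd88 the Tnfrsf9 ratio was between -0.48 and 0.39 in all 4 conditions.

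Il18r1 was divided by Klrg1 and Cxcr3. Klrg1, which encodes an inhibitory receptor of differentiated effector cells, marked low Il18r1. The level was 55.1 CPM with a Klrg1 UMI against 169 CPM without in KO (-1.61), 50.2 against 163 CPM in WT (-1.70), 116 against 143 CPM in HFD (-0.31) and 41.0 against 166 CPM in NCD cells (-2.02). Cells without Klrg1 thus lay between 143 and 169 CPM in every condition, and HFD was the highest among the cells with it. Cxcr3, a chemokine receptor of type 1 T cells, marked high Il18r1, at 121 against 77.1 CPM in KO (0.65), 125 against 59.0 CPM in WT (1.08), 176 against 107 CPM in HFD (0.72) and 132 against 40.8 CPM in NCD cells (1.69). Pparg, the transcription factor of the adipose Treg programme, marked lower Il18r1, with log2 ratios of -0.69 in KO, -0.81 in WT, -0.53 in HFD and -0.65 in NCD cells. Klrg1-positive cells were deeper in every condition, with median UMIs of 4184 against 2949 in NCD and 3786.5 against 2834 in WT. The ratios by subset gene come from the full counts, and the part of depth in them was not tested.

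Ccr7, the homing receptor of central T cells, marked low Il18rap and more Il1r2. Il18rap stood at 26.4 CPM with a Ccr7 UMI against 45.8 CPM without in KO (-0.76), 21.4 against 49.0 CPM in WT (-1.11), 10.7 against 38.9 CPM in HFD (-1.84) and 24.2 against 50.9 CPM in NCD cells (-1.03). Ccr7-positive cells numbered 148 in KO, 71 in WT, 890 in HFD and 133 in NCD, so HFD held far more of them. Il1r2 was at 40.9 against 16.8 CPM in KO (1.30), 21.4 against 8.73 CPM in WT (1.38), 70.4 against 51.3 CPM in HFD (0.46) and 24.2 against 7.58 CPM in NCD cells (1.71). It was also higher in Pparg-positive cells of every condition, with log2 ratios of 0.49 in KO, 1.43 in WT, 0.47 in HFD and 0.87 in NCD. Il18r1 was lower in Ccr7-positive HFD cells, at 72.2 against 159 CPM (-1.14), but not in the other 3 conditions, where the ratio was 0.22 in KO, 0.35 in WT and 0.44 in NCD. Foxp3 itself divided Il18r1 by no more than 0.09 on the log2 scale in any condition.

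**Figure D5:**
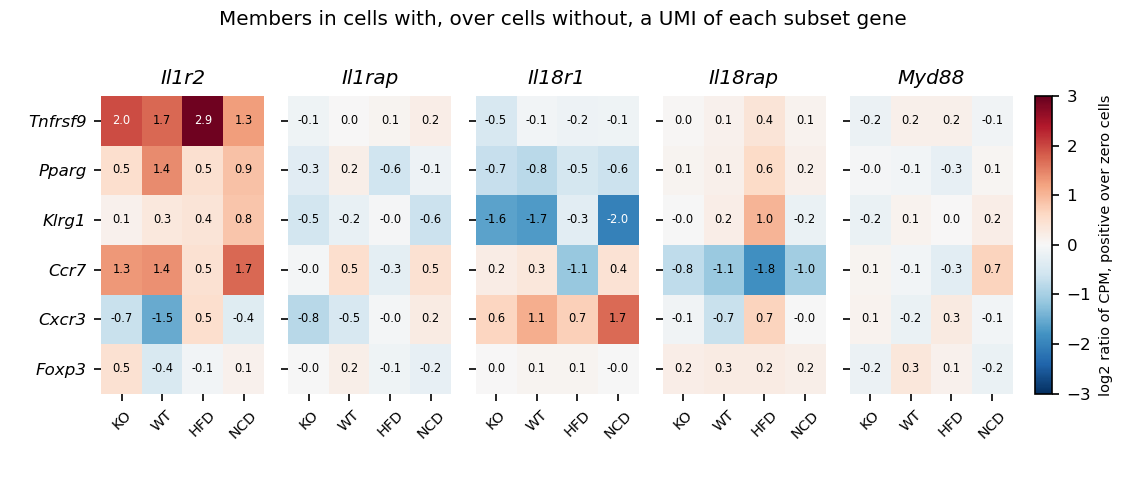
Log2 ratio of CPM in cells with, over cells without, a UMI of each subset gene (rows) for 5 receptor genes (panels) in KO, WT, HFD and NCD cells (columns). Colour and the printed value give the ratio, with red higher and blue lower in the cells with the subset gene. Tnfrsf9 with Il1r2 (1.26 to 2.92) and Klrg1 with Il18r1 (-2.02 to -0.31) are the rows that keep 1 sign and reach the largest sizes.

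The genes whose detection went most with each member were ranked by the lowest log2 ratio over the conditions, in thinned cells with a UMI of the member against cells without. For Il18r1, over all 4 conditions, the leading genes were Klf12 (lowest ratio 0.97), March3 (0.82), Slc4a7 (0.60), Itgb1 (0.60) and Phlpp1 (0.59). Itgb1, the beta-1 integrin chain, stood at 611 against 403 CPM in HFD cells, the condition with its smallest ratio, and at 519 against 157 CPM in NCD cells. For Il18rap they were 2010016I18Rik (0.67), Arhgap26 (0.53), Atrn (0.53), Sos2 (0.52) and St8sia4 (0.51), and for Myd88 Dhrs1 (0.48), Btbd10 (0.47), Nol8 (0.44), Adck2 (0.44) and Plekha3 (0.44). Il18r1 was itself the 12th gene in the ranking of Il18rap, with a lowest ratio of 0.48. For Myd88 no gene reached a ratio of 0.5, and weak ratios in such sparse counts are given as a ranking only.

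Il1r2 and Il1rap had at least 100 positive thinned cells in 1 condition each. In HFD cells, Il1r2 (162 cells) went most with genes that include Dnph1 (3.35), Gm47957 (3.25), Tnfrsf8, which encodes the receptor CD30 (3.25), and Slc7a10 (3.07). These genes stood between 21.6 and 37.0 CPM in the positive cells, which is a handful of UMIs each. In NCD cells, Il1rap (109 cells) went most with Ccl3 (3.80), Klrd1 (3.41), Fcer1g (3.37), Ncr1 (3.27) and Cenpf (2.82). In the positive cells Ccl3 and Cenpf stood at 22.9 CPM and Klrd1 and Ncr1 at 32.1 CPM, again a handful of UMIs each. Fcer1g stood at 101 CPM. Klrd1, Fcer1g and Ncr1 are known from natural killer (NK) cells. The list of 6 CD8 T or NK cell markers summed to 38.1 CPM in Il1rap-positive NCD cells, against 29.3 CPM in all NCD cells, with 4 of 6 markers found and Cd8a and Eomes at 0. The part of NK or stromal cells in the Il1rap ratios within the split was not tested beyond the ratios without such cells.

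The same CD8 T or NK list stood beside the IL-18 receptor chains. It summed to 32.1 CPM in Il18r1-positive KO, 34.2 CPM in WT, 23.3 CPM in HFD and 59.6 CPM in NCD cells, against 21.0 CPM in all KO, 20.3 CPM in all WT, 22.7 CPM in all HFD and 29.3 CPM in all NCD cells, and Cd8a was at 0 by the cell filter. Without the cells that had a UMI of Ncr1, Klrk1, Eomes or Klrb1c, the log2 ratio of Il18r1 was 0.35 for KO over WT and 1.34 for HFD over NCD, and that of Il18rap for HFD over NCD was -0.63. These ratios differ little from those over all cells.

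The other genes of the IL-1 family pathway were nearly level between KO and WT. Of 40 listed ligands, receptors, adaptors and NF-κB genes, 26 reached 5 CPM in the higher condition of each pool. In KO against WT cells 1 of the 26 was higher and none was lower, a share of 3.85% higher beside the 5.41% of all genes. That gene was Casp1, which encodes the protease that matures IL-1β and IL-18, at 58.6 CPM in KO and 46.8 CPM in WT cells (log2 ratio 0.32, 0.18 to 0.47). The next farthest from 0 were Il1rl1 (-0.29), the inhibitory kinase Irak3 (-0.21), the ligand Il18 (-0.20), Irak2 (0.13) and Nfkb1 (0.10). The median over the 26 was 0.01.

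Between the diets, 2 of the 26 were higher and 9 lower in HFD cells, shares of 7.69% and 34.6% beside backgrounds of 23.6% and 15.8%. Casp1 was higher, at 71.3 CPM in HFD and 40.1 CPM in NCD cells (log2 ratio 0.83), as was the ubiquitin-conjugating enzyme gene Ube2n (0.32). Besides Il1rl1 (-2.61), the farthest lower were Il1rapl1 (-1.33), Irak3 at 6.04 CPM in HFD and 15.1 CPM in NCD cells (-1.32), Nfkbiz at 217 CPM in HFD and 542 CPM in NCD cells (-1.32), Nfkbia at 1275 CPM in HFD and 2735 CPM in NCD cells (-1.10) and Tnfaip3 at 735 CPM in HFD and 1379 CPM in NCD cells (-0.91). Nfkbiz, Nfkbia and Tnfaip3 encode regulators of NF-κB that are themselves induced by it. The kinase gene Irak2 (-0.85), Il18 (-0.62) and Nfkb1 (-0.54) were also lower. Early-response genes outside the list, named after their values were seen, were lower too, with Fos at 388 CPM in HFD and 2015 CPM in NCD cells and Atf3 at 27.7 CPM in HFD and 347 CPM in NCD cells, and their part in these differences was not tested. The ligand genes Il1a, Il1b, Il1rn, Il18bp and Il33 were under 5 CPM in all 4 conditions. Casp1, Il1r2 and Il18r1 were thus higher in HFD cells while most called genes of the list were lower.

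In the receptor gene cluster on chromosome 1, neighbours did not share a direction. From left to right, the HFD over NCD log2 ratio was 2.79 for Il1r2, not read for Il1r1, 2.12 for Il1rl2 on 34 and 9 UMIs (under 5 CPM), -2.61 for Il1rl1, 1.31 for Il18r1 and -0.65 for Il18rap. Il1rl1 and Il18r1, which lie 133 bases apart, thus had opposite signs. For KO over WT the same genes gave 0.98 for Il1r2, -0.29 for Il1rl1, 0.36 for Il18r1 and -0.10 for Il18rap.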

How the data were processed

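Droplet-based 5′ RNA sequencing and hashtag libraries of 2 pools of sorted VAT Treg cells were analysed. The authors deposited raw UMI counts per barcode, over genes and hashtags in 1 matrix. Cell Ranger was version 7.1.0 (Srebf2 pool) and 7.0.1 (diet pool), per the file headers, but 7.0.1 throughout, with mm10, per the submitters' processing notes. Other filters by the authors are not stated there.

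The matrices held 9036 and 11456 barcodes. Cells with 500 or more genes, under 10% mitochondrial counts and 90% or more of their hashtag counts from 1 hashtag were kept, which left 7785 and 10326. Another 339 and 876 cells with a Cd79a, Lyz2 or Cd8a UMI were left out, leaving 7446 and 9450. Droplets in which neither hashtag reached 90% were thereby removed. Droplets with a smaller share of the other condition's hashtag remain, as do doublets within a condition. Hashtags were 99% pure in 3151 of 3956 KO, 244 of 3490 WT, 2523 of 4512 HFD and 2263 of 4938 NCD cells. The pools shared 135 barcodes, 87 of them among cells kept. Total depth was 16444262 UMIs in KO, 14010241 in WT, 18543516 in HFD and 22200627 in NCD cells, and precision is given as counting intervals.

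Counts were summed per condition. Ratios had 0.5 counts added to each sum and exact intervals from the binomial split, levels had exact Poisson and shares exact Clopper-Pearson intervals, at 95%. Thinning drew 2000 UMIs per cell without replacement and left out 311 KO, 307 WT, 711 HFD and 286 NCD shallower cells. With 1 sample per condition no test was run and no p-value is given. The script was checked on simulated data. Left-out cells called B cells had 3 or more Cd79a UMIs and no Cd3e UMI.

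Genes named are the 6 members, Il1rl1 and Srebf2, up to 6 pathway genes per comparison farthest from 0 at 5 CPM or more, the 5 genes most like each member with 100 or more positive thinned cells in a condition, at 20 CPM or more, and subset genes (Cxcr3, Ccr7, Klrg1, Pparg, Tnfrsf9, Foxp3). Some genes that the rule takes are not reported here. Fos, Atf3, Irak2, Il18 and Nfkb1 under the diet comparison and Ube2n are named beyond this rule. The members and lists were chosen with earlier results of these data known. Promoter sequences and positions are RefSeq's for GRCm38.p6, and all 6 members matched by symbol; Il36a, Il36b, Il36g and Il36rn were matched through RefSeq synonyms. Alternatives to the scaling, the filters, the hashtag purity, the split and the weighting of cells were tried. Python 3.11.15, numpy 2.4.6, scipy 1.17.1, pandas 2.3.3 and matplotlib 3.10.9 were used.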

Additional observations from a re-analysis of the deposited data

Results flagged for a closer look

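The lean of Il1r2 between Il1rl1-positive and Il1rl1-zero cells went in opposite directions in different conditions. The log2 ratio was 0.493 in KO and 0.813 in NCD cells, and -0.281 in HFD cells, with counting intervals that leave out 0 in all 3. The difference between these ratios was not tested, since each condition is 1 pool. With cells thinned to 2000 UMIs before the split the NCD ratio was -1.13, on 24 UMIs in Il1rl1-positive and 25 in Il1rl1-zero cells. With cells thinned after the split, the NCD levels were 5.75 CPM (43 UMIs) in Il1rl1-positive and 3.28 CPM (6 UMIs) in Il1rl1-zero cells.

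In the hashtag rows that no comparison uses, the diet pool held 4 UMIs of Hashtag 1, a hashtag of the Srebf2 pool, beside 3486144 UMIs of Hashtag 3 and 2868044 of Hashtag 4.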

How the results depend on the processing

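No paired analysis was possible because each condition is 1 pool of mice under 1 hashtag. Of the ratios between conditions, 153 values under alternatives stayed within the main counting interval and 9 moved beyond it. Of the counts of genes, 58 stayed within 1.5 times and 10 did not. The log2 ratio of Il1r2 for KO over WT was 0.98 and became 1.33 with hashtags 99% pure, 1.33 among cells with a Foxp3 UMI and 0.55 in thinned cells. For HFD over NCD, Il1r2 became 2.43 with cells weighted equally, Il18r1 0.70 and Il18rap -0.25 at equal shares of Il1rl1-positive cells. Il1r1, on 11 HFD and 4 NCD UMIs, was 1.61 and became -0.40 with 99% purity, -0.36 among cells with a Foxp3 UMI and -0.10 without cells with a stromal marker.

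Among the members, the 2 higher in KO than WT became 1 at equal Il1rl1 shares. The 0 lower became 1 with 99% purity and 1 among cells with a Foxp3 UMI (Il1rap in both). The 1 lower in HFD than NCD became 2 with the median of all genes set to 0. Leaving out cells with an Il1r2 UMI, an alternative chosen after seeing the data, left 1 higher in each comparison, by construction without Il1r2. Of the pathway list, the 1 gene higher in KO became 0, and the 2 higher in HFD became 1, both at 1.5-fold and with the median at 0.

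In the Il1rl1 split, Il1rap turned to -0.41 in WT and 0.33 in NCD with 99% purity, and Il1r2 to -1.13 in NCD when thinned before the split. Of the ratios between conditions within the split, 108 values stayed within the interval, 11 moved and 1 turned round, Il1rap in Il1rl1-zero cells of HFD over NCD (-0.61, and 0.088 with 99% purity). Il1r2 in Il1rl1-zero cells of KO over WT, 1.01, became 2.85 with that purity. The 99% purity left 244 WT cells, 58 of them Il1rl1-zero, of 3490. The causes of the other moves were not tested. Leaving out cells with NK or stromal markers, requiring 50 hashtag UMIs and all alternatives within the split were also chosen after seeing the data. Leaving out NK marker cells and the 50 hashtag UMIs moved no ratio between conditions over all cells beyond its interval, but without NK marker cells the lean of Il18rap in NCD, 0.14, became 0.38, past the size threshold. Depth limits Il1r1, and the 18 Il1r2 UMIs of Il1rl1-zero NCD cells.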
